A study of Mus musculus with 12 samples.

Results

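The levels of 10 genes of the small leucine-rich proteoglycan family, Dcn, Lum, Bgn, Fmod, Prelp, Ogn, Nepn, Omd, Aspn and Podn, were followed in stromal cells sorted from mouse thymus. They were taken by symbol from the 23306 gene symbols of the deposited table, as decorin-type matrix proteoglycans abundant in the cortical epithelial gate together with Nepn in endothelium. They were thus chosen by their measured level in cortical cells and, for Nepn, in endothelial cells, and these levels support nothing further. The cortical level of each gene, and the endothelial level of Nepn, are given here as a description with no test. All 10 symbols were in the table, and 9 had enough counts to be tested, the exception being Omd. The highest group mean was in the cortical gate for 6 of the 10 genes, Dcn, Lum, Fmod, Prelp, Ogn and Podn, and in tomato+ endothelium for Nepn, as the choice was worded. It was not for the other three, with Bgn and Omd highest in tomato- endothelium and Aspn in the medullary gate.

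Small leucine-rich proteoglycans are secreted proteins of the extracellular matrix, built around a curved core of leucine-rich repeats that binds collagen, and most of them carry chondroitin, dermatan or keratan sulfate chains. They set the spacing and thickness of collagen fibrils, and several also hold growth factors of the TGF-beta family in the matrix or bind receptors at the cell surface. Fibroblasts are their best known source, and in the thymus the capsule, the septa and the sheaths around vessels are rich in the collagen they bind.

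The series measured polyadenylated RNA by sequencing, after cDNA amplification with the SMARTer Ultra Low kit, in cells of C57 BL6 mice that carry a KitL-tomato reporter, a red fluorescent mark for expression of Kit ligand. All 4 groups came from this reporter strain and each held 3 libraries. Tomato+ VEC and tomato- VEC were vascular endothelial cells, sorted as Lin-, Dapi-, EpCAM- and CD31+, with or without reporter signal. Tomato+ cTEC were cortical epithelial cells, sorted as EpCAM+, CD31-, UEA1- and Ly51+ with reporter signal, and tomato- mTEC were medullary epithelial cells, sorted as EpCAM+, CD31-, UEA1+ and Ly51- without it. The reporter and the cortical or medullary identity cannot be told apart in the epithelial groups. Age, sex and the number of animals per library are not given in the labels, and nothing there ties each library to its own animal. The p-values therefore describe the spread among these libraries, which may be technical.

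Total counts per library were 8388869 to 11807130. Levels of a gene across libraries are given as CPM, counts scaled to library size with TMM factors, and levels of different genes are compared only as deposited RPKM, which divides by gene length. The summed CPM of 8 endothelial markers was 8640 to 11480 in the endothelial libraries and that of 6 pan-epithelial markers was 2744 to 4118 in the epithelial ones, against at most 1.56 in endothelium. The 7 cortical markers summed to 13020 to 15380 CPM in cTEC and 1785 to 3339 in mTEC, and the 7 medullary markers to 230.1 to 551.4 and 4173 to 5559. Blood cell markers (9 genes) summed to 2.02 to 237.6 CPM in endothelium, 37.7 to 191.8 in cTEC and 393.0 to 407.4 in mTEC. A few libraries stood apart in ways that touch the proteoglycans. Replicate 2 of cTEC held 389.0 CPM of endothelial markers, against 19.5 and 2.25 in replicates 1 and 3. Replicate 2 of mTEC held most of the Aspn and Kera of its group, and replicate 3 of tomato+ VEC held more Bgn than the other libraries of its group. In sorted bulk samples, fewer cells of a type and less RNA per cell cannot be told apart.

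Per gene length, the family was dominated by a single gene in 3 of the 4 groups. In cTEC, Dcn made up 82.8%, 85.6% and 83.5% of the summed RPKM of the 10 genes in replicates 1 to 3, and it ranked 34th of 15605, 40th of 15086 and 58th of 15379 genes with a value. In tomato- VEC, Bgn made up 94.8%, 95.5% and 95.8% of that sum, and it ranked 109th, 161st and 102nd. In mTEC, Dcn made up 90.6% and 91.4% in replicates 1 and 3 but 43.4% in replicate 2, where Aspn held 34.04% and Bgn 14.8%. Tomato+ VEC had a mixed make-up, with Nepn at 49.2%, 28.1% and 15.2%, Bgn at 25.7%, 37.3% and 63.9%, and Prelp at 22.8%, 26.6% and 19.1%. The summed RPKM itself was 1080 to 1472 in cTEC, 483.9 to 658.6 in tomato- VEC, 114.4 to 195.4 in tomato+ VEC and 145.1 to 226.7 in mTEC.

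**Figure D1:**
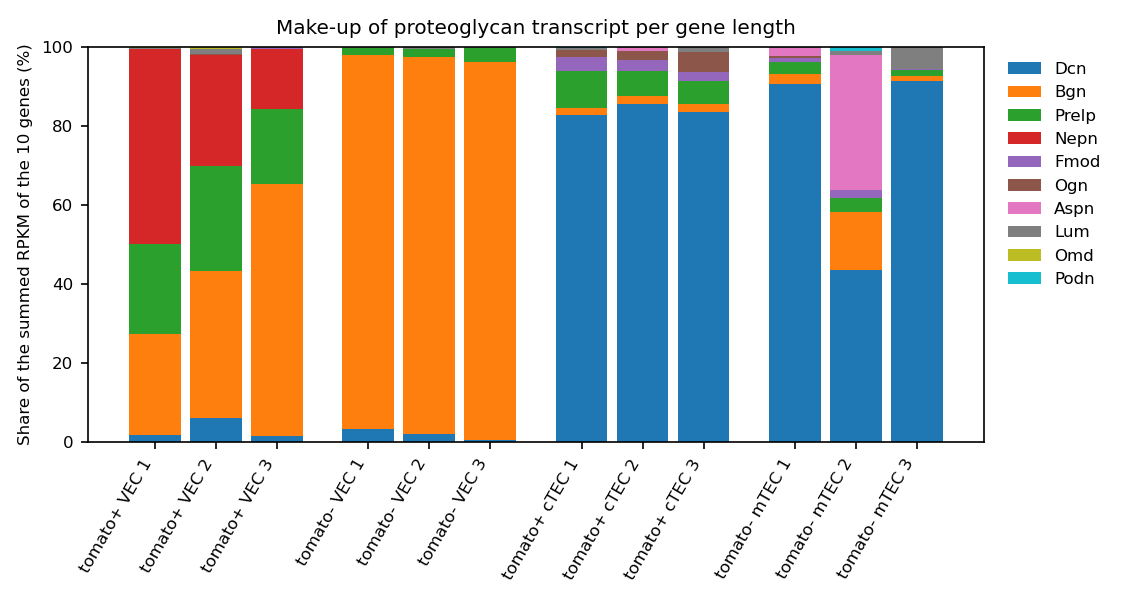
Share of the summed deposited RPKM of the 10 genes held by each gene, as stacked bars that reach 100%, in each of the 12 libraries. Dcn fills 82.8% to 85.6% of the cTEC bars and Bgn 94.8% to 95.8% of the tomato- VEC bars, while the tomato+ VEC bars are split among Bgn, Prelp and Nepn.

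Dcn encodes decorin, which binds collagen fibrils and TGF-beta and is also a ligand of receptor tyrosine kinases. It was at 2057, 1976 and 1559 CPM in the 3 cTEC libraries and at 237.2, 115.9 and 369.8 CPM in mTEC. The tomato- VEC libraries held 44.1, 19.8 and 5.27 CPM, and the tomato+ VEC libraries 5.40, 14.5 and 5.57 CPM. All 3 cTEC libraries were above every other library, the 3 mTEC libraries were above the 6 endothelial ones, and the endothelial groups overlapped. Such separation from mTEC was common, at 39% of all genes for cTEC, 46.8% for tomato- VEC and 47.3% for tomato+ VEC. It was not counted between cTEC and endothelium. The group means were 1864 ± 267.4 CPM in cTEC, 241.0 ± 127.0 in mTEC, 23.0 ± 19.6 and 8.497 ± 5.21 in tomato- and tomato+ VEC (SD, n = 3 each). The cTEC mean was thus 7.74 times that of mTEC, 80.9 times that of tomato- VEC and 219.4 times that of tomato+ VEC, a description, since this level entered the choice of the gene. Outside the cortical gate, Dcn was lower in tomato- VEC than in mTEC (log2 -3.39, SE 0.68, edgeR adjusted p = 0.00357). It was also lower in tomato+ VEC than in mTEC (log2 -4.83, SE 0.74, edgeR adjusted p = 0.000493). Between the endothelial groups Dcn differed by log2 -1.44 (SE 0.65), which missed the threshold (edgeR adjusted p = 0.299).

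**Figure D2:**
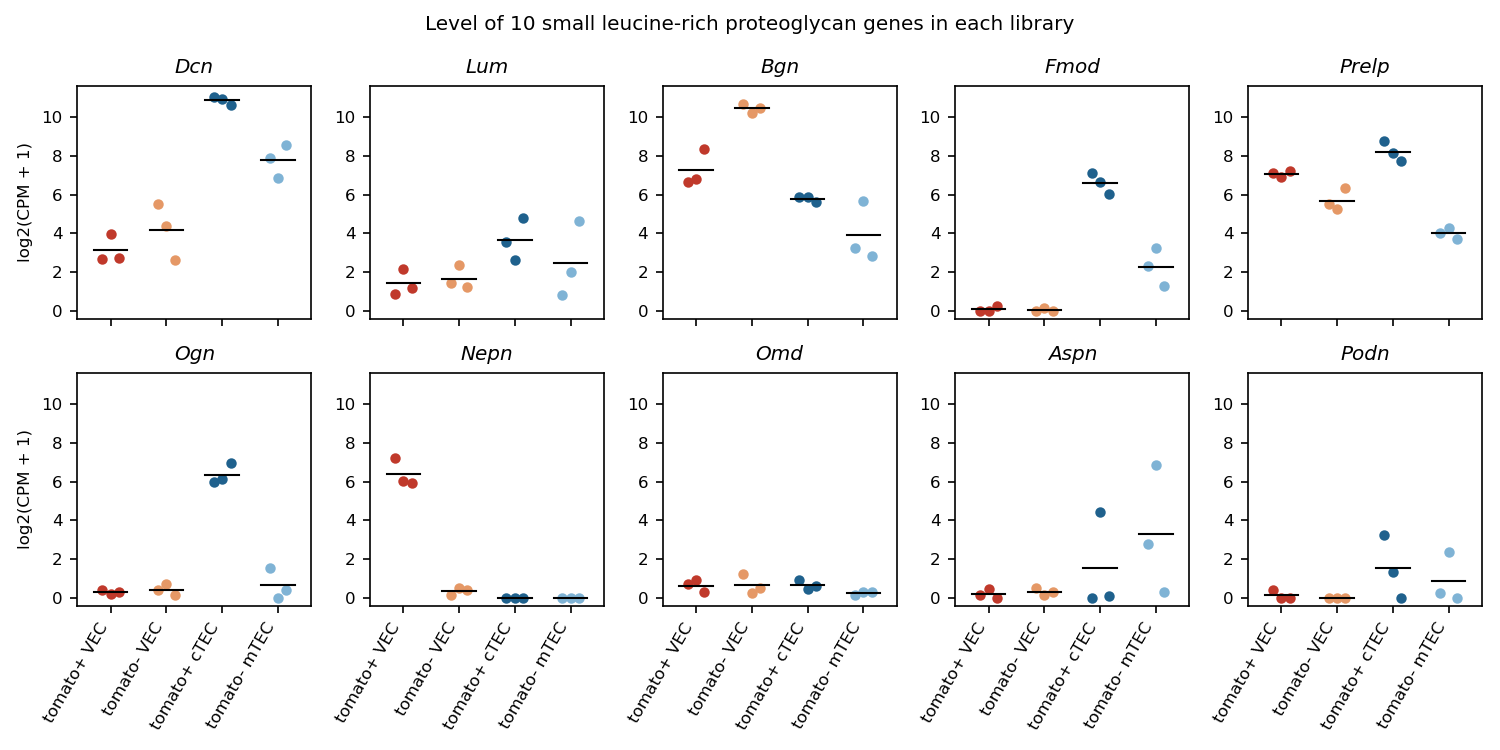
Level of each of the 10 genes as log2(CPM + 1), in panels by gene, with a point for each library and a line at the mean of the 3 log2 values of a group. The Dcn points of cTEC lie above those of every other group, the Bgn points are highest in tomato- VEC, and the Nepn points are raised in tomato+ VEC and at 0 in both epithelial groups.

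Because fibroblasts are rich in Dcn, markers of mesenchymal cells were read in the same libraries. The 15 markers summed to 408.9, 397.2 and 309.9 CPM in cTEC and 183.4, 90.9 and 85.1 CPM in mTEC, against 7.62 to 51.3 CPM in endothelium. The cTEC sum was held mostly by Serpinf1, which encodes the secreted factor PEDF, at 156.4, 246.7 and 265.2 CPM, and by Fbln1, a matrix glycoprotein, at 86.2, 48.3 and 24.5 CPM. Mfap5, a microfibril gene, was at 34.9, 16.4 and 0 CPM in cTEC but at 107.6, 16.04 and 31.5 CPM in mTEC. Fibrillar collagen genes were uneven over the cTEC libraries. Col1a1 was at 9.90, 10.2 and 0.260 CPM in the 3 cTEC libraries, Col1a2 at 36.9, 18.4 and 1.30 CPM, and Col3a1 at 72.1, 47.4 and 14.4 CPM. In cTEC replicate 3, Dcn, Fbln1, Mfap5 and these collagen genes were at their lowest of the cTEC libraries, as were Pdgfrb, Prrx1 and Fap. Serpinf1, Dpt and Mfap4 were at their highest there, with Dpt at 1.13 and Mfap4 at 1.21 CPM. The receptor gene Pdgfra, a defining fibroblast marker, was at 9.26, 1.08 and 1.30 CPM in cTEC and Pdgfrb at 0.367, 3.23 and 0.173 CPM. Of the transcription factor genes, Twist2 had 0 counts in both epithelial groups, Twist1 was at 2.48, 0 and 0.433 CPM in cTEC, and Prrx1 stayed at or under 0.588 CPM there. In mTEC the means of Pdgfrb, Prrx1, Dpt, Mfap4 and Fap were 10.05, 1.525, 2.30, 8.89 and 3.31 CPM. Each was above its cTEC mean, at 1.26, 0.227, 0.730, 0.469 and 1.30 CPM. The means of Pdgfra, Twist1, Fbln1, Serpinf1 and the collagen genes above were higher in cTEC. Between cTEC and mTEC, 1 of 12 tested mesenchymal markers was called (5 at an unadjusted p under 0.05, DESeq2 3, limma-trend 4). This was Serpinf1, higher in cTEC (log2 7.04, SE 1.19, edgeR adjusted p = 0.00496), and the median log2 difference of the list was -0.432 against 0.0192 over all genes. Over all 14792 genes tested, 7.83% were called in this comparison, 2.73% higher and 5.1% lower in cTEC. Mural cell markers (8 genes) summed to 485.0 to 1608 CPM in cTEC and 840.0 to 1233 CPM in mTEC, with none of 7 tested called (2 at an unadjusted p under 0.05, DESeq2 2, limma-trend 1). The part of such cells in the Dcn level was not tested.

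**Figure D3:**
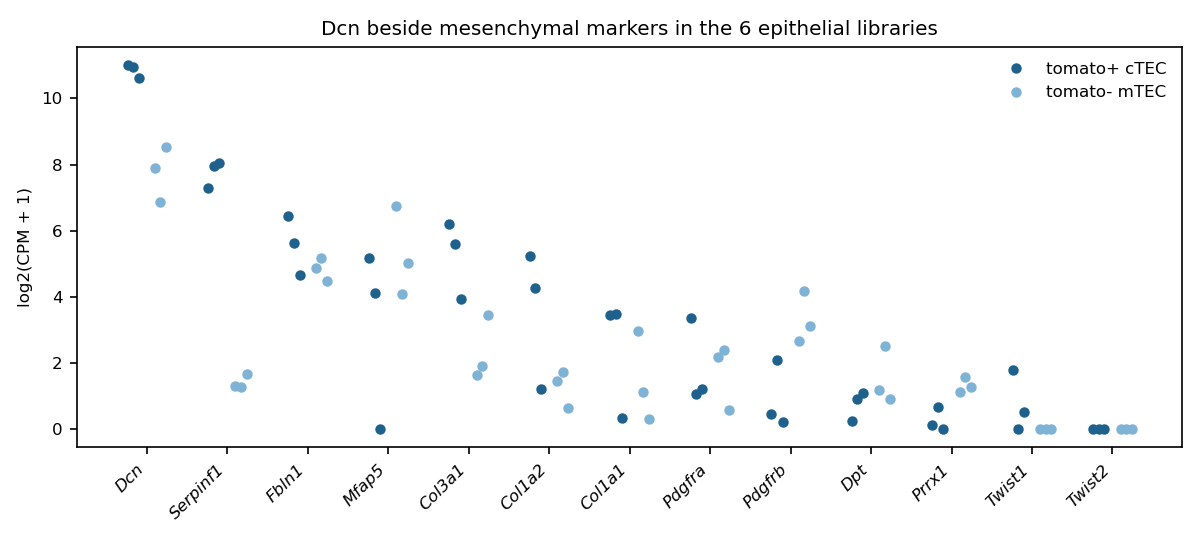
Dcn and mesenchymal marker genes as log2(CPM + 1) in the 3 tomato+ cTEC and 3 tomato- mTEC libraries, with a point for each library. Dcn and Serpinf1 lie higher in all 3 cTEC libraries than in any mTEC library, while the points of Pdgfra overlap between the groups and those of Twist2 are at 0.

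Bgn encodes biglycan, the closest relative of decorin, which binds collagen and in soluble form activates Toll-like receptors. The tomato- VEC libraries held 1633, 1178 and 1418 CPM and the tomato+ VEC libraries 101.1, 112.6 and 327.7 CPM. It was at 58.1, 57.7 and 47.6 CPM in cTEC and at 8.58, 49.9 and 6.25 CPM in mTEC. The tomato- VEC libraries were above all others and the tomato+ VEC libraries above all epithelial ones, while the epithelial groups overlapped through mTEC replicate 2. Of all genes, 15.8% did not overlap between the endothelial groups, and 46.8% and 47.3% between tomato- or tomato+ VEC and mTEC. This share was not counted between endothelium and cTEC. The means were 1410 ± 227.5 CPM in tomato- VEC, 180.5 ± 127.6 in tomato+ VEC, 54.5 ± 5.96 in cTEC and 21.6 ± 24.5 in mTEC (SD, n = 3 each). The mean of tomato- VEC was thus 7.81 times that of tomato+ VEC. This endothelial difference of log2 -2.97 (SE 0.70) nevertheless did not pass (edgeR adjusted p = 0.0597). Without tomato+ VEC replicate 3 it was log2 -3.67 and passed (edgeR adjusted p = 0.0334), and over 20 alternative settings its adjusted p ranged from 0.000685 to 0.147 and passed in 8. Against mTEC, Bgn was higher in tomato- VEC (log2 6.04, SE 0.82, edgeR adjusted p = 0.00024) and in tomato+ VEC (log2 3.07, SE 0.71, edgeR adjusted p = 0.00695). Mural cells also make biglycan, and their 8 markers summed to 467.7, 513.8 and 186.7 CPM over the tomato- VEC and 185.0, 251.6 and 69.8 CPM over the tomato+ VEC libraries. Most of each sum was a single gene, Tagln, at 422.6, 475.0 and 154.8 CPM in the former and 150.2, 215.7 and 36.4 CPM in the latter. The pericyte marker Rgs5 had the higher mean in tomato+ VEC, with overlap. It was at 1.78, 0.425 and 4.93 CPM in the tomato- and 1.25, 29.8 and 29.1 CPM in the tomato+ libraries. Kcnj8 and Abcc9 had the higher mean in tomato- VEC, as Bgn did. Kcnj8, which was not tested, was at 14.1, 0.637 and 7.51 CPM there and at most 0.262 CPM in tomato+ VEC. Abcc9 overlapped, at 23.7, 30.6 and 9.64 CPM in tomato- and 28.3, 1.18 and 0.214 CPM in tomato+ VEC. Tagln, Acta2 and Myh11 also had the higher mean in tomato- VEC, with overlap. Cspg4 and Notch3 were at or under 0.654 CPM in all 6 libraries. None of 7 tested mural markers was called between the endothelial groups (2 at an unadjusted p under 0.05, DESeq2 1, limma-trend 0), and their part in the Bgn level was not tested. In cTEC replicate 2, the library with the endothelial transcripts, Bgn at 57.7 CPM lay within the range of its group.

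Promoter sequences from RefSeq (build GRCm38.p6) were found for 8 of the 10 genes, and those of 3 genes whose highest levels lay in different gates are shown: Bgn in tomato- endothelium, Nepn in tomato+ endothelium and Ogn in the cortical gate. Each runs over the 250 bases before the gene's start, 5′ to 3′ on the gene's own strand, which is the plus strand for all 3. Capitals mark the core promoter element TATAAA and the GC box GGGCGG, searched on both strands with overlaps counted and marked where either strand holds the motif.
Bgn, chrX:73483351-73483600, plus strand: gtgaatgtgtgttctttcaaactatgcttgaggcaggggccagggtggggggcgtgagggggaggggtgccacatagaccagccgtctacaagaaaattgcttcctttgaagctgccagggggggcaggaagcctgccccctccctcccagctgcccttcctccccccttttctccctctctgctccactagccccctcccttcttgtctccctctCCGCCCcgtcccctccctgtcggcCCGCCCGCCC
Nepn, chr10:52391358-52391607, plus strand: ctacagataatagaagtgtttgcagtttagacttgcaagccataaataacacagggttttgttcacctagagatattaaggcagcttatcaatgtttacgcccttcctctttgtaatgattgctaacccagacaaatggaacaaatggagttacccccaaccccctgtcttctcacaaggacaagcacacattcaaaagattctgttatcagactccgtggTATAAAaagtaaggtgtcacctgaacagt
Ogn, chr13:49607765-49608014, plus strand: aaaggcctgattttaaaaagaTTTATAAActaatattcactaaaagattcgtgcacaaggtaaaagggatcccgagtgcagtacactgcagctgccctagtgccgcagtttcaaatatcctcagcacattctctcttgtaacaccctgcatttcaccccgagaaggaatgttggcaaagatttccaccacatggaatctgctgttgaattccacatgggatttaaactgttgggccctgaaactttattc
The Bgn window held 3 GC boxes, all on the opposite strand and the last 2 overlapping, but lacked the other motif, and 64.4% of its bases were G or C. The Nepn window held 1 TATAAA, whose first base lies 29 bases before the start, and 40.4% of its bases were G or C. The Ogn window held 2 overlapping matches to TATAAA, of which the same-strand match begins 227 bases before the start, and 42.0% of its bases were G or C. Of 32851 promoters of the same length, 12.4% held a TATAAA and 32.7% a GC box on either strand. These matches are a description of letters and not of bound factors.

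Aspn encodes asporin, a close relative of decorin that binds collagen and TGF-beta, and its level rested on single libraries. It was at 5.98, 113.2 and 0.240 CPM in mTEC and at 0, 20.6 and 0.0866 CPM in cTEC, with the high value in replicate 2 of each group. In endothelium its 6 libraries held 0 to 0.445 CPM. Aspn was lower in tomato+ VEC than in mTEC with 4 counts against 1039 (log2 -7.86, SE 2.73, edgeR adjusted p = 0.0448). Without mTEC replicate 2 this was log2 -4.12 and did not pass (edgeR adjusted p = 0.249), and the call was lost in 9 of 18 alternative settings, with an adjusted p of 0.00048 to 0.249 over all of them. Against tomato- VEC it missed the threshold (log2 -7.20, SE 2.63, edgeR adjusted p = 0.061). Aspn reached the tests only through its counts in mTEC replicates 1 and 2 and cTEC replicate 2. Both tests of Aspn therefore add nothing to the levels above. The mesenchymal markers of mTEC replicate 2 summed to 90.9 CPM, against 183.4 and 85.1 CPM in replicates 1 and 3, and its mural markers to 1233 CPM, against 840.0 and 1225 CPM. Neither sum set replicate 2 apart, although single markers did. Pdgfrb was at 16.97 CPM there, against 5.40 and 7.78 CPM in replicates 1 and 3. Rgs5 was at 433.7 CPM against 232.1 and 206.3 CPM, and Dpt at 4.77 CPM against 1.25 and 0.882 CPM. Fbln1, Col1a2, Pdgfra, Prrx1 and Myh11 were also highest in replicate 2. Mfap4, Mfap5, Fap, Serpinf1, Notch3 and Cspg4 were lowest there. The part of such cells in the Aspn value was not tested.

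Prelp, Fmod, Lum, Omd and Ogn lie on the keratan sulfate side of the family. Of the 10 genes, Prelp alone was above 10 CPM in all 12 libraries. It encodes a proline- and arginine-rich protein that binds heparan sulfate and links basement membranes to collagen. It was at 438.8, 285.1 and 210.6 CPM in cTEC, at 135.2, 121.0 and 147.7 CPM in tomato+ VEC, at 44.9, 36.9 and 79.0 CPM in tomato- VEC, and at 15.4, 18.6 and 12.0 CPM in mTEC. No group overlapped with its neighbour in this order. Such separation held for 15.8% of all genes between the endothelial groups and for 46.8% between tomato- VEC and mTEC. It was not counted between cTEC and tomato+ VEC. The means in cTEC, tomato+ VEC, tomato- VEC and mTEC were 311.5 ± 116.4, 134.6 ± 13.4, 53.6 ± 22.4 and 15.4 ± 3.29 CPM (SD, n = 3 each). Prelp was higher than in mTEC both in tomato+ VEC (log2 3.13, SE 0.37, edgeR adjusted p = 8.5e-05) and in tomato- VEC (log2 1.80, SE 0.36, edgeR adjusted p = 0.00314). Tomato+ VEC held 2.51 times the mean of tomato- VEC, the opposite direction to Bgn, at log2 1.33 (SE 0.35), which missed the threshold (edgeR adjusted p = 0.0823). It passed with DESeq2 (adjusted p = 0.0139) and without tomato- VEC replicate 3 (edgeR adjusted p = 0.0377), out of 20 alternative settings with an adjusted p of 0.0139 to 0.208. Of the 3615 exon bases of Prelp, 9.68% are shared with a transcript on the opposite strand, Gm15851, and since the counting is not stated to use strand, reads from this stretch cannot be told apart.

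Fmod encodes fibromodulin, which binds collagen and steers fibril thickness and cross-linking. It was at 136.8, 97.9 and 65.1 CPM in cTEC and at 4.05, 8.37 and 1.44 CPM in mTEC, a ratio of means of 21.6. Endothelium held next to none of it, with 2 counts over the 3 tomato+ VEC libraries and 1 count over the 3 tomato- VEC libraries. From pooled counts, mTEC held 55.8 times the Fmod of tomato+ VEC (95% counting interval 15.2 to 465.9) and 114.7 times that of tomato- VEC (20.2 to 4563). Both differences from mTEC passed (edgeR adjusted p = 0.00258 for tomato+ VEC and 0.00196 for tomato- VEC). Fmod reached these tests only through its epithelial counts, so both calls add nothing to the levels above. Intervals of this kind, and limits from a count of 0, cover counting error only.

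Lum encodes lumican, which shares collagen binding sites with fibromodulin, and its levels were low and uneven. It was at 10.8, 5.10 and 26.8 CPM in cTEC and at 0.771, 3.02 and 24.2 CPM in mTEC. The endothelial libraries held 0.831 to 4.14 CPM. The cTEC libraries were above every endothelial library, a separation whose share over all genes was not counted. The mTEC range overlapped with all other groups. Lum did not pass in any tested comparison, at log2 -0.35 (SE 1.20, edgeR adjusted p = 0.948) between the endothelial groups, -1.96 (SE 1.23, edgeR adjusted p = 0.285) for tomato- VEC against mTEC and -2.31 (SE 1.25, edgeR adjusted p = 0.186) for tomato+ VEC against mTEC. Omd encodes osteomodulin, best known from bone, and stayed between 0.0964 and 1.34 CPM over the 12 libraries, too few counts for a test.

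Ogn encodes osteoglycin, also called mimecan, a further keratan sulfate type member. Its promoter is shown above. It was at 61.6, 68.7 and 124.0 CPM in cTEC, while the other 9 libraries held 0 to 1.93 CPM. The cTEC mean of 84.8 ± 34.2 CPM (SD, n = 3) was 113.1 times the mTEC mean of 0.750 ± 1.03. The other 3 groups overlapped, with 24 counts over the mTEC libraries, 10 over tomato- VEC and 6 over tomato+ VEC. Ogn reached the test through its cTEC counts, so its tests among these 3 groups show nothing and are not given. Within cTEC, Ogn and Lum were highest in replicate 3, the library in which Dcn, Fmod and Prelp were lowest. Podn encodes podocan, a collagen-binding member first described in kidney. It was at 8.53, 1.57 and 0 CPM in cTEC and at 0.193, 4.18 and 0 CPM in mTEC, with 3 counts over the tomato+ VEC libraries and 0 over those of tomato- VEC, where 3 libraries at 0 allow up to 0.110 CPM. With so few counts, the tests of Podn are likewise not given.

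Nepn encodes nephrocan, a member described as an inhibitor of TGF-beta signalling, and it was the one gene of the 10 that marked tomato+ endothelium. Tomato+ VEC libraries held 147.8, 64.9 and 59.6 CPM of it, and tomato- VEC libraries 0.111, 0.425 and 0.336 CPM. All 6 epithelial libraries had 0 counts, which allows up to 0.0919 CPM in cTEC and 0.0954 CPM in mTEC. The mean of tomato+ VEC, 90.7 ± 49.5 CPM (SD, n = 3), was 312.0 times that of tomato- VEC, where the 3 libraries held 8 counts against 2474. From counts pooled over each group, rather than the mean above, Nepn was at least 1012-fold higher in tomato+ VEC than in cTEC and at least 974.8-fold higher than in mTEC, with the epithelial group set at 3 counts in total. These levels entered the choice of the gene and carry no test, and between cTEC and mTEC, both at 0, no fold can be given. In cTEC replicate 2, with its 389.0 CPM of endothelial markers, Nepn was at 0 like in the other cTEC libraries.

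Counted over the 8 tested genes other than Nepn, none was called between tomato+ and tomato- VEC, where edgeR called 1.65% of all genes (0.568% higher and 1.08% lower in tomato+ VEC). At an unadjusted p under 0.05 there were 3, and DESeq2 called 2 and limma-trend 1. Of the 8, Fmod, Ogn, Aspn and Podn had at most 10 counts in either endothelial group, too few to show a difference. Bgn and Prelp were the 2 of 8 whose endothelial libraries did not overlap, as was so for 15.8% of all genes. Between tomato- VEC and mTEC, 4 of 8 were called, Bgn and Prelp higher and Dcn and Fmod lower in endothelium, against a background of 27.5%, of which 10.6% higher and 16.9% lower. Between tomato+ VEC and mTEC, 5 of 8 were called, the same 4 genes in the same directions and Aspn lower, against 31.8%, of which 12.4% higher and 19.4% lower. The calls of Fmod and Aspn carry the limits given above. The last 2 comparisons share the mTEC libraries. Nothing particular to the family is read from these counts.

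**Figure D4:**
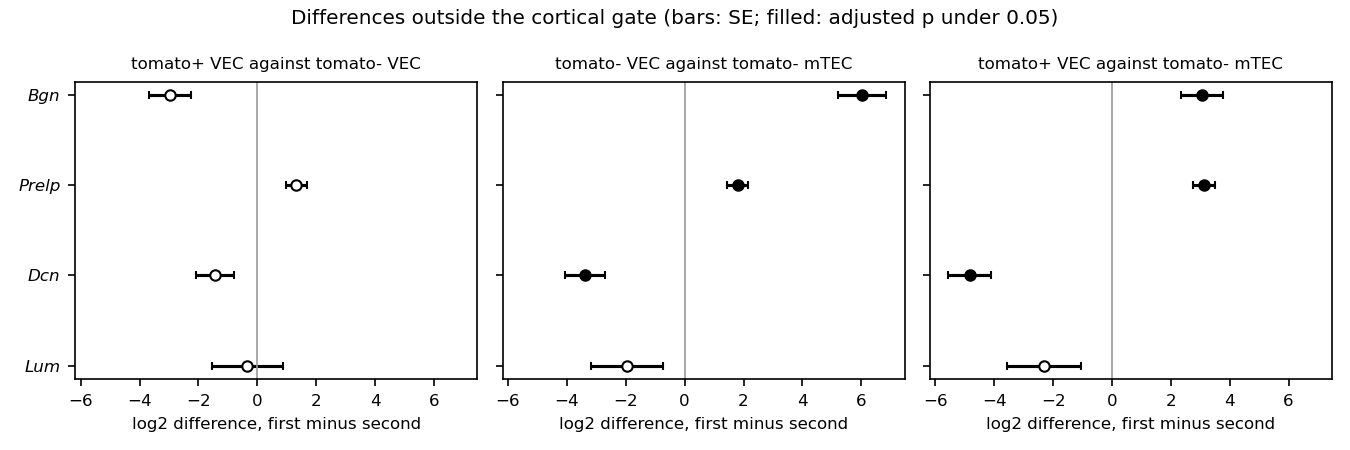
Fitted log2 difference of Bgn, Prelp, Dcn and Lum in the 3 comparisons that leave out the cortical gate, with bars of 1 SE on either side and filled points where the edgeR adjusted p is under 0.05. Bgn and Prelp are on opposite sides of 0 between the endothelial groups and both higher in endothelium than in mTEC, where Dcn is lower.

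Most of the family sits in short runs of neighbouring genes, by the order of the RefSeq gene table of GRCm38.p6, and each run held genes with different patterns, although the adjacent pairs Dcn and Lum, and Prelp and Fmod, were highest in the same group, cTEC. On chromosome 10 the run is Dcn, Lum, Kera and Epyc. Dcn was highest in cTEC, whereas Epyc, epiphycan of cartilage, was at 12.0, 7.67 and 23.0 CPM in mTEC and at 0, 0 and 2.51 CPM in cTEC. Kera, keratocan of the cornea, reached 38.7 CPM in mTEC replicate 2, whereas no other library held over 0.675 CPM. On chromosome 1 the run is Optc, Prelp and Fmod. Optc, opticin of the eye, was at 15.7, 2.09 and 7.46 CPM in mTEC and at or under 0.173 CPM in every other library, whereas Prelp and Fmod were highest in cTEC. On chromosome 13 the run is Ecm2, Aspn, Omd and Ogn, of which the last 3 lie within the span of Cenpp on the reference but share no exon bases with it. Ecm2, a matrix protein with the same repeats, was at 188.9, 99.0 and 133.9 CPM in the tomato+ and 103.9, 53.6 and 82.9 CPM in the tomato- VEC libraries, against 0.433 to 18.5 CPM in the 6 epithelial libraries. Ogn, at the other end of that run, had its high values in cTEC. Bgn on chromosome X, Nepn on chromosome 10 and Podn on chromosome 4 have no family gene next to them. Nus1, next to Nepn, was at 251.4 ± 40.0 CPM in tomato+ VEC, 188.8 ± 67.7 in tomato- VEC, 47.6 ± 18.2 in cTEC and 37.7 ± 9.12 in mTEC (SD, n = 3), and Gopc on its other side at 98.9 ± 51.8, 78.1 ± 25.6, 41.2 ± 18.5 and 20.5 ± 3.93 CPM. Haus7, next to Bgn, was at 0.319 to 51.1 CPM over the 6 endothelial libraries, and Atp2b3 on its other side at or near 0 in all 12.

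**Figure D5:**
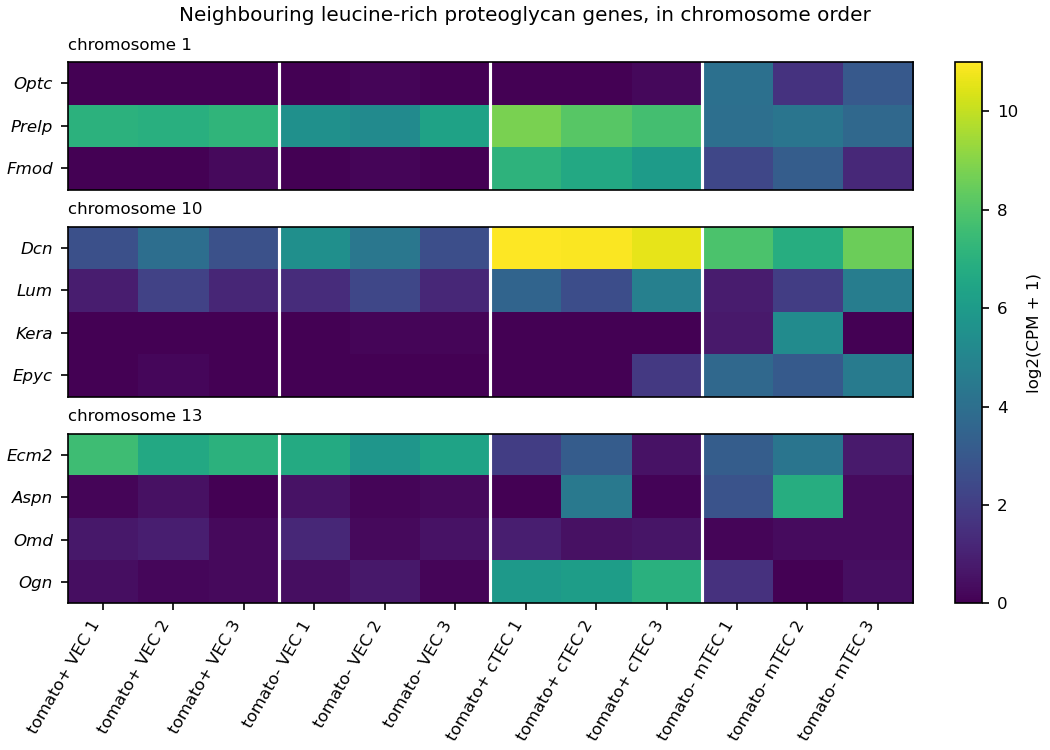
Level as log2(CPM + 1), on a colour scale from dark (0) to bright, of the leucine-rich proteoglycan genes in 3 runs of neighbours, with genes in chromosome order from top to bottom and the 12 libraries from left to right. In each run the bright cells fall in different groups, such as Ecm2 in the endothelial libraries and Ogn in the cTEC libraries.

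Of the 9 family genes outside the 10, 5 could be tested. Between cTEC and mTEC 1 was called, Optc, lower in cTEC with 2 counts against 274 (edgeR adjusted p = 0.0469), a call lost in 14 of 19 alternative settings (adjusted p 0.00253 to 0.174). Optc reached the tests only through its mTEC counts, so its call adds nothing to its levels. At an unadjusted p under 0.05 there was 1 of the 5, and DESeq2 called 1 and limma-trend 2. The median log2 difference of the list was -1.24 against 0.0192 over all genes. Between the endothelial groups none was called (0 also at an unadjusted p under 0.05, with DESeq2 and with limma-trend). Tsku, tsukushi, was at 2.91 to 16.7 CPM over all 12 libraries.

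Among genes that build the glycosaminoglycan chains, no difference passed in the epithelial or the endothelial reporter comparison. Of 18 tested, 0 were called between cTEC and mTEC (4 at an unadjusted p under 0.05, DESeq2 1, limma-trend 5) and the median log2 difference was 0.979 against 0.0192 over all genes. Between the endothelial groups 0 of 18 were called (0 at an unadjusted p under 0.05, with DESeq2 and with limma-trend), with a median of -0.66 against 0. The epimerase gene Dse, which turns chondroitin into dermatan sulfate, was at 91.0, 79.2 and 79.2 CPM in cTEC and at 20.8, 36.3 and 31.9 CPM in mTEC, with no overlap (39% of all genes do not overlap), at log2 1.49 (SE 0.51), which missed the threshold (edgeR adjusted p = 0.109). In endothelium Dse was at 1.57 to 5.46 CPM. Its relative Dsel was at 43.9, 28.4 and 37.6 CPM in cTEC, at 1.54, 11.5 and 8.10 CPM in mTEC and at 2.14 to 56.5 CPM in endothelium. The sulfotransferase gene Ust was at 10.2, 16.95 and 14.3 CPM in cTEC and at 5.21, 4.07 and 3.93 CPM in mTEC, with 2 counts over the tomato- VEC libraries and 0 over those of tomato+ VEC. Csgalnact1, which starts chondroitin sulfate chains, ranged from 111.4 to 174.3 CPM in tomato- VEC, from 77.8 to 130.6 CPM in tomato+ VEC and from 11.1 to 20.6 CPM in the epithelial libraries. Chst11, a chondroitin sulfotransferase gene, was at 35.1 to 94.3 CPM over the 12 libraries and Chsy1, a chondroitin synthase gene, at 20.7 to 95.01 CPM.

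Among 18 collagen partners and fibril assembly genes, 1 was called between cTEC and mTEC (7 at an unadjusted p under 0.05, DESeq2 3, limma-trend 5). Serpinh1, which encodes the collagen chaperone HSP47, was at 120.6, 157.7 and 101.7 CPM in cTEC and at 29.2, 49.8 and 57.8 CPM in mTEC, and was higher in cTEC (log2 1.47, SE 0.30, edgeR adjusted p = 0.013). Without cTEC replicate 2 it missed the threshold (edgeR adjusted p = 0.0518). The list's median was log2 0.623 against 0.0192 over all genes. Col12a1, a collagen that lies on fibril surfaces, was at 166.4, 179.9 and 133.3 CPM in cTEC and at 45.1, 40.3 and 71.0 CPM in mTEC, which did not pass (edgeR adjusted p = 0.227). Its reporter contrast in endothelium differed from that between the epithelial groups by log2 -4.92 (edgeR adjusted p = 0.043 for the interaction), as 3.08% of all genes did by that test. Col6a1, of the microfibril collagen that binds decorin and biglycan, was at 175.6, 105.8 and 125.3 CPM in cTEC and at 247.9, 320.2 and 236.5 CPM in mTEC, which also missed the threshold (edgeR adjusted p = 0.242). In the endothelial libraries, where Bgn was abundant, Col6a1 was at 0.208 to 1.59 CPM. P4ha1, a collagen prolyl hydroxylase gene, was at 88.2, 71.8 and 58.9 CPM in tomato+ VEC and at 84.3 to 212.5 CPM in tomato- VEC. Between the endothelial groups none of the 18 was called (2 at an unadjusted p under 0.05, DESeq2 1, limma-trend 0), with a median of -0.515 against 0.

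Of 13 tested growth factor and receptor partners, 2 were called between cTEC and mTEC (3 at an unadjusted p under 0.05, DESeq2 3, limma-trend 2). Egfr, a receptor that decorin binds, was at 223.6, 136.1 and 153.1 CPM in cTEC and at 50.3, 23.4 and 67.2 CPM in mTEC, and was higher in cTEC (log2 1.86, SE 0.44, edgeR adjusted p = 0.0267). This call was lost in 6 of 20 alternative settings (adjusted p 0.00472 to 0.154), 5 of them settings that leave out a single library of these groups. In endothelium Egfr was at 0.104 to 0.319 CPM. Kdr, the VEGF receptor gene of endothelium, was at 11.4, 23.4 and 0.0866 CPM in cTEC and at 0, 0.465 and 0 CPM in mTEC, and was called higher in cTEC (log2 6.33, SE 1.46, edgeR adjusted p = 0.0224). This call was lost in 7 of 19 alternative settings (adjusted p 4.03e-05 to 0.137), among them without cTEC replicate 2 (edgeR adjusted p = 0.0659), without cTEC replicate 1 (0.0571) and without any single mTEC library (0.0548 to 0.0902). Lrp1, an endocytic receptor of decorin, was at 74.3, 52.4 and 27.7 CPM in cTEC and at 10.9, 15.2 and 9.06 CPM in mTEC, at log2 2.13 (SE 0.69), which missed the threshold (edgeR adjusted p = 0.0849). The list's median was log2 0.573 against 0.0192. Between the endothelial groups none of 13 was called (3 at an unadjusted p under 0.05, DESeq2 2, limma-trend 1), with a median of -0.109 against 0. Thbs1, a matrix protein that activates TGF-beta, was at 655.7, 884.0 and 1178 CPM in tomato- VEC and at 229.4, 189.4 and 376.6 CPM in tomato+ VEC (edgeR adjusted p = 0.27). Of the Toll-like receptor genes, Tlr2 was at 44.7, 59.2 and 31.3 CPM in the tomato+ and 24.9, 27.5 and 16.8 CPM in the tomato- VEC libraries (edgeR adjusted p = 0.545), and Tlr4 at 12.0 to 203.5 CPM over these 6 libraries.

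Likeness of pattern was measured as Pearson's r on log2(CPM + 1) over the 12 libraries, among 10696 genes with a mean of at least 5 CPM, as a description, since the 12 points share groups and libraries. The 6 genes most like Dcn were Fxyd2 (r = 0.977), Bnc1 (0.970), Defb1 (0.968), Acpp (0.968), Olfml1 (0.967) and Arhgef10l (0.966). Fxyd2, a regulator of the sodium pump, was at 346.3 ± 151.7 CPM in cTEC, 63.2 ± 39.1 in mTEC and 2.41 ± 3.89 in tomato- VEC (SD, n = 3). Bnc1, a zinc finger factor gene of epithelia, averaged 31.3 ± 2.35 CPM over the cTEC and 8.08 ± 3.24 over the mTEC libraries (SD, n = 3). Defb1, a beta-defensin gene, was at 84.5 ± 18.3 CPM in cTEC, 12.3 ± 7.59 in mTEC and 0 in endothelium (SD, n = 3). Within the family, r with Dcn was 0.908 for Fmod, 0.825 for Ogn, 0.697 for Lum, 0.516 for Podn, 0.300 for Aspn and 0.180 for Prelp, and it was -0.607 for Bgn and -0.655 for Nepn. By rank, the correlation with Dcn was lower for all 6 genes, and they ranked 14th to 72nd among the genes compared. The order also depended on the pseudocount: with 0.1 in place of 1, Fxyd2 came 10th and Acpp 34th.

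The 6 genes most like Nepn were Vwa3a (r = 0.984), Sema7a (0.961), Ssu2 (0.960), Scgb3a1 (0.952), Myo1e (0.945) and Srp9 (0.939). Vwa3a averaged 30.6 ± 6.67 CPM over the tomato+ VEC and 0.112 ± 0.111 over the tomato- VEC libraries (SD, n = 3). Sema7a, a membrane-anchored semaphorin gene, was at 35.1 ± 5.32 and 2.80 ± 0.985 CPM, and Scgb3a1, a secretoglobin gene, at 62.3 ± 25.6 and 3.03 ± 0.785 CPM, with 0 in both epithelial groups. Myo1e and Srp9, unlike Nepn, were present in every group. In tomato+ VEC, tomato- VEC, cTEC and mTEC, Myo1e averaged 100.5, 32.6, 23.65 and 24.05 CPM and Srp9 88.5, 46.9, 45.4 and 44.0 CPM. By rank the order changed, with Scgb3a1 first and Vwa3a 2209th at a Spearman's rho of 0.529. With a pseudocount of 0.1, Myo1e came first, Vwa3a 23rd and Ssu2 55th. Within the family the r of Nepn with the other tested genes was between -0.655 (Dcn) and 0.289 (Prelp).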

How the data were processed

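Poly(A) RNA of the 12 sorted samples was amplified with a SMARTer Ultra Low kit and sequenced, per the labels' protocols. TopHat2 2.0.10 and the mouse build mm9 are named in the submitters' processing notes, whereas the sources used here give neither the read counter nor the gene annotation. The deposited table holds raw read counts per gene symbol and, per the file headers, deposited RPKM values. For all 180417 RPKM values tested, the count over the library total implied the same length for a gene in every library (relative tolerance 1e-06). No gene coordinates are printed, since the reference at hand (GRCm38) was of another build, apart from the windows of the RefSeq promoter table itself.

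Counts were tested with the quasi-likelihood F test of edgeR 4.0.16 (R 4.3.3) after filterByExpr (minimum count 10, leaving 14792 genes) and TMM scaling. All 12 libraries entered with a term per group, giving 8 residual degrees of freedom, and p-values were adjusted by Benjamini-Hochberg over all genes tested and called under 0.05. A fold against a group at 0 is a bound against 3 counts over the group. A fold against 1 to 3 counts has a 95% counting interval. Promoters were searched over 250 bases.

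The genes, lists and tests were chosen with earlier results of these data known. All 10 genes are named. Genes of the partner and mesenchymal lists were named where called between cTEC and mTEC, and some where abundant. Genes called only between endothelium and mTEC, and most markers, are not all named, although the naming rule covered them. Dse, Dsel, Ust, Lrp1, Tlr2, Tlr4, Thbs1, Tagln, Kcnj8, Abcc9, Acta2, Myh11, Col1a1, Col1a2, Pdgfra, Pdgfrb, Prrx1, Dpt, Mfap4, Fap, Twist1 and Twist2 were named after their values were seen. Neighbours of the genes in the reference and the 6 genes of highest r with Dcn and with Nepn were named too, leaving out unnamed gene models. The alternatives were DESeq2 1.42.0, limma-trend (limma 3.58.1) on log2(RPKM + 1), scaling by relative log expression, omission of the low-count filter or a stricter one (5 CPM in 3 libraries), a fit of the 6 libraries compared alone, a replicate block, and omission of each library in turn. Scripts were tested on simulated counts.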

Additional observations from a re-analysis of the deposited data

Results flagged for a closer look

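The reporter contrast (tomato+ less tomato-) in endothelium was compared with that between the epithelial groups by an interaction term, over all genes, of which 3.08% passed. Among the listed partner and marker genes, 10 had contrasts that differed, of which 8 were markers of cortical or medullary epithelium. The endothelial contrast less the epithelial one was log2 -4.48 for Ctsl (edgeR adjusted p = 0.000286), -5.59 for Prss16 (0.00456), -9.11 for Ly75 (0.0203) and -4.52 for Psmb11 (0.0351), all cortical markers. It was 5.66 for Ccl19 (edgeR adjusted p = 0.00177), -3.70 for Ccl21a (0.0228), 4.06 for Tnfrsf11a (0.0282) and 6.27 for Fezf2 (0.03), all medullary markers. The other two were Col12a1 and Rgs5. For Col12a1, a collagen of fibril surfaces, the endothelial contrast was lower than the epithelial one by log2 -4.92 (edgeR adjusted p = 0.043). Its levels were 0.272 ± 0.105 CPM in tomato+ VEC, 2.75 ± 2.38 in tomato- VEC, 159.9 ± 24.0 in cTEC and 52.2 ± 16.5 in mTEC (SD, n = 3 each). For Rgs5, a pericyte marker, the endothelial contrast was higher by log2 6.31 (edgeR adjusted p = 0.048). Its levels were 20.1 ± 16.3, 2.38 ± 2.31, 30.9 ± 30.4 and 290.7 ± 124.5 CPM in the same order (SD, n = 3 each). Prss16, Psmb11, Ccl19 and Fezf2 had at most 9 counts over either endothelial group, so their interactions only restate the difference between cTEC and mTEC. In the epithelial groups the reporter and the cortical or medullary identity cannot be told apart.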

How the results depend on the processing

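The count of proteoglycans other than Nepn called between the endothelial groups was 0, and it became 2 with DESeq2 and 1 with no low-count filter, with only the 6 libraries compared, with limma-trend and without 3 libraries that stand apart (a setting chosen after seeing the data), and 0 to 1 leaving out each library. For tomato- and tomato+ VEC against mTEC, 4 and 5 were called, and 4 to 5 in each comparison over every setting run. Over all genes, the 244 calls between the endothelial groups became 1258 with DESeq2, 112 with only the 6 libraries, 473 with limma-trend, 140 without the 3 libraries, and 174 to 394 leaving out each library. The 1158 calls between cTEC and mTEC became 1975, 2487, 2530 and 277 under the same 4 settings, and 428 to 1193 leaving out each library. The 4703 calls of tomato+ VEC against mTEC fell to 2762 without the 3 libraries. The 19 listed partner and marker genes called between cTEC and mTEC became 29, 33, 37 and 11 under those 4 settings and 11 to 20 leaving out each library, and the 3 called between the endothelial groups became 10 with DESeq2. The cause of these shifts was not tested. Leaving out each library, Lum ranged from log2 -1.12 to 0.37 between the endothelial groups and turned direction without tomato+ VEC replicate 1 (0.04) or tomato- VEC replicate 2 (0.37). Against mTEC, Lum ranged from -2.65 to 0.37 for tomato- VEC and from -3.09 to 0.0406 for tomato+ VEC, and turned without mTEC replicate 3. Podn ranged from -6.84 to 0.21 for tomato+ VEC against mTEC, and turned without mTEC replicate 2. None of these 5 passed. Relative log expression scaling moved the median of all genes from log2 -0.15 to -0.332 for tomato- VEC against mTEC and from -0.195 to -0.371 for tomato+ VEC, and turned the direction of no proteoglycan. Of the results for single genes, lists and levels, 850 kept their direction and side of the threshold, 42 moved, 78 lost and 15 gained a call. Deviations of same-numbered replicates correlated at -0.0137 to 0.0687. This gave no clear sign of pairing by number, but with 3 libraries per group it cannot exclude pairing. With the replicate number as a block, 178 genes were called between the endothelial groups and 814 between cTEC and mTEC, with 0 proteoglycans called in the former. Not every sample correlated best with its own number. Omd and genes near 0 counts are limited by depth.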
